A study of Mus musculus with 12 samples.

Results

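The 9 genes described here encode the enzymes that set the phosphorylation of the translation factor eIF2alpha, that factor itself, a mitochondrial protease that signals to one of the enzymes, and a repressor of cap-dependent translation. They are the kinases Eif2ak1, Eif2ak2, Eif2ak3 and Eif2ak4, the substrate Eif2s1, the phosphatase subunits Ppp1r15a and Ppp1r15b, the protease Oma1 and the translation repressor Eif4ebp1. They were taken by name from the 48709 genes of the deposited count tables, and all 9 passed the filter on low counts that left 14408 genes for testing. The libraries were made from mouse embryonic fibroblasts of strain C57BL/6, grown in DMEM with fetal bovine serum, and the study concerns what the loss of tafazzin does to the response to low oxygen. There were 4 groups of 3 libraries: cells labelled WT in normoxia, cells labelled WT after 24 hours of hypoxia, cells labelled TAZKo in normoxia, and cells labelled TAZKo after 24 hours of hypoxia. TAZKo denotes loss of tafazzin, a transacylase that matures cardiolipin in mitochondria and is encoded by Taz. The labels give neither the allele, the number of cell lines or embryos, nor the oxygen level, and nothing in them says that the libraries of a group came from separate cultures, so the p-values below measure the spread between these libraries, which may be technical.

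When eIF2alpha is phosphorylated, most translation slows while a few messenger RNAs with upstream reading frames, among them that of the transcription factor ATF4, are translated more; this is the integrated stress response. The kinases differ in what activates them: HRI (Eif2ak1) responds to low haem and to mitochondrial distress, PKR (Eif2ak2) to double-stranded RNA, PERK (Eif2ak3) to unfolded protein in the endoplasmic reticulum and GCN2 (Eif2ak4) to uncharged tRNA. GADD34 (Ppp1r15a, stress-induced) and CReP (Ppp1r15b, constitutive) bring protein phosphatase 1 to eIF2alpha. OMA1 cleaves DELE1 in stressed mitochondria, and the DELE1 fragment activates HRI in the cytosol. All of these steps act on proteins, and the counts report only messenger RNA.

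Taz itself did not mark the knockout in these counts. It had 859, 758 and 902 counts in the WT normoxia libraries against 1089, 919 and 1325 in TAZKo normoxia, and 510, 589 and 646 in WT hypoxia against 691, 948 and 1006 in TAZKo hypoxia. The log2 difference was 0.29 ± 0.079 (SE) in normoxia and 0.43 ± 0.080 in hypoxia, higher under the TAZKo label (edgeR quasi-likelihood test, adjusted p = 0.0139 and 0.00112), and the normoxia call was lost in 7 of 34 alternative settings. The counts do not show which part of the gene is altered, so the genotypes below are those of the labels. Total counts ran from 21039451 to 31204510 per library. WT normoxia library 1 stood apart on the third principal component (a score of 35.7 against -13.4 to 10.5 in the other 11 libraries), and 0.921% of its counts were mitochondrial against 1.23% to 1.93% elsewhere. Without it, none of the 4 calls between genotypes in normoxia and none of the 7 calls for hypoxia in WT among the 9 genes was lost, and their values without it are given with each gene. In the pathway lists read beside them, 2 of 27 calls between genotypes in normoxia (Dele1 and Phb2) and 2 of 42 for hypoxia in WT (Dele1 and Eif2b1) were lost without it. Of 10 fibroblast markers, 8 were over 1 CPM (counts scaled to a common library size by the trimmed mean method) in each group, with Thy1 and Lum near 0. Summed over the list, they ran from 10380 to 13260 CPM, against 97.9 to 151.7 for 4 epithelial, 1.12 to 3.90 for 3 endothelial and 2.90 to 7.93 for 3 leukocyte markers, with Ptprc, Cdh5 and Adgre1 at or near 0. These sums rest on few genes. Fn1 was the largest part of the fibroblast sum, with group means of 4805 to 7356 CPM, while Col1a2 had 2.12 to 5.33. Nearly all of the epithelial sum was Krt18, with group means of 99.8 to 131.6 CPM. Single markers differed between groups. Of the 8 fibroblast markers tested, 4 were higher and 2 lower in TAZKo normoxia, 3 higher and 2 lower in TAZKo hypoxia, and with hypoxia 2 rose and 5 fell in WT and 1 rose and 4 fell in TAZKo. Col1a1, a collagen gene, had means of 2835, 3605, 1153 and 1376 CPM in WT normoxia, WT hypoxia, TAZKo normoxia and TAZKo hypoxia, and Pdgfrb, a growth factor receptor gene, 49.6, 24.3, 104.3 and 46.0. The endothelial marker Kdr stood at 3.16, 3.20, 0.998 and 1.16 CPM and the leukocyte marker Cd68 at 3.06, 7.38, 3.81 and 6.52 in the same order. The part of these differences in the results below was not tested. In bulk libraries, a change in the mix of cells and a change in RNA per cell cannot be told apart.

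Hypoxia moved more of these genes than the genotype did, as it did among all genes tested, and the phosphatase subunit gene Ppp1r15a moved most. A gene is counted as higher, lower, risen or fallen where the edgeR quasi-likelihood test gave an adjusted p under 0.05 over all genes tested, and log2 differences are given with their standard errors. In the cells labelled WT, 4 of the 9 genes rose and 3 fell after hypoxia, where 51% of all genes tested changed (26% higher, 25% lower). In the cells labelled TAZKo, 2 rose and 3 fell, where 43.8% of all genes changed (22.2% higher, 21.6% lower). Between genotypes in normoxia, 3 were higher and 1 lower in TAZKo, against 30.4% of all genes called (15.6% higher, 14.9% lower), and in hypoxia none was higher and 3 were lower, against 32.8% (15.8% higher, 16.9% lower). The hypoxia response itself differed between genotypes for 1 of the 9, against 2.43% of all genes (0.722% in the higher and 1.71% in the lower direction). With 9 genes, these shares are read only as a description. The median log2 difference of the 9 genes was 0.14 for hypoxia in WT, -0.05 for hypoxia in TAZKo, 0.07 and -0.07 for TAZKo against WT in normoxia and in hypoxia, and -0.18 for the difference between responses. The medians over all genes tested lay between -0.02 and 0.01 in the same comparisons. The genotype comparisons and the hypoxia comparisons share libraries, so they are not independent of one another.

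**Figure D1:**
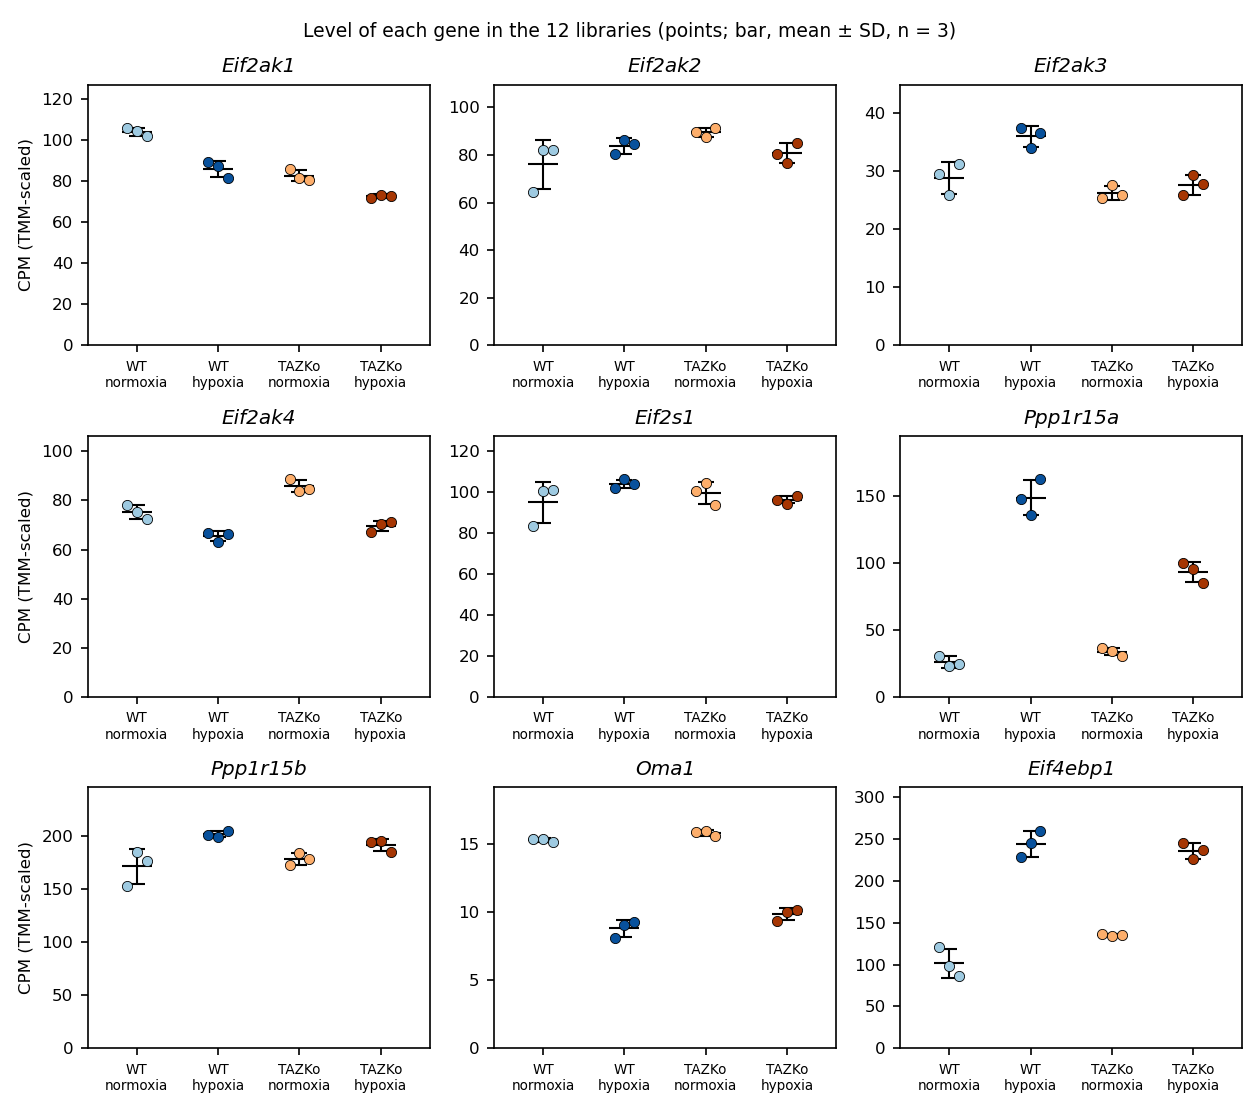
Scaled CPM of the 9 genes in each of the 12 libraries (points), with the mean and SD of each group of 3 as bars; each panel has its own axis from 0. Ppp1r15a runs from 22.6 to 36.1 in the 6 normoxic libraries and from 84.7 to 162.1 in the 6 hypoxic ones, and Oma1 from 15.1 to 15.9 against 8.10 to 10.1.

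Eif2ak1, the HRI kinase (ENSMUSG00000029613, GRCm38 chr5:143817788-143904251, plus strand), was lower after hypoxia in both genotypes and lower under the TAZKo label in both conditions. Its level was 105.7, 104.2 and 101.8 CPM in WT normoxia, 89.1, 87.1 and 81.5 in WT hypoxia, 85.6, 81.5 and 80.5 in TAZKo normoxia, and 71.4, 73.3 and 72.6 in TAZKo hypoxia. The WT normoxia libraries were the 3 highest and the TAZKo hypoxia libraries the 3 lowest, while the other 2 groups overlapped. The log2 difference of TAZKo from WT was -0.33 ± 0.054 in normoxia and -0.25 ± 0.055 in hypoxia (edgeR, adjusted p = 0.000419 and 0.00362). For hypoxia it was -0.27 ± 0.054 in WT and -0.19 ± 0.055 in TAZKo (edgeR, adjusted p = 0.000839 and 0.0129). The normoxia genotype difference was -0.32 and the WT hypoxia difference -0.26 without WT normoxia library 1. The 2 hypoxia responses did not pass a test of their difference (0.09 ± 0.077, edgeR adjusted p = 0.637). Aimp2, a scaffold protein gene of the tRNA synthetase complex, lies on the opposite strand and covers 8.59% of the merged exon length of Eif2ak1, and 10.3% of the 50-base words of the longest Eif2ak1 transcript also occur in Aimp2 transcripts. The library kit does not mark strand, so reads from the overlap cannot be assigned to one gene by strand. Aimp2 rose with hypoxia by 1.07 ± 0.082 in WT and 1.02 ± 0.082 in TAZKo on the log2 scale (edgeR, adjusted p = 1.74e-07 and 4.65e-07), opposite to Eif2ak1, and was lower in TAZKo by -0.24 and -0.29 (edgeR, adjusted p = 0.0394 and 0.012). The share of Eif2ak1 counts that this overlap carries was not tested. Among the other genes, shared 50-base words made up 10.7% for Ppp1r15b and 7.64% for Eif2ak3, each with an overlapping gene on the other strand that had 64 and 27 counts in all 12 libraries together, 8.49% for Eif2s1, 3.45% for Eif2ak2, 3.17% for Eif4ebp1, and 0% for Eif2ak4, Ppp1r15a and Oma1. The hypoxia call in TAZKo was lost without TAZKo normoxia library 1 when the scaling reference was held (-0.16, edgeR adjusted p = 0.0583).

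Eif2ak2, the PKR kinase (ENSMUSG00000024079, chr17:78852564-78882573, minus strand), passed none of the 5 tests of the edgeR fit over 12 libraries, but its normoxia genotype difference lay near the threshold. It stood at 64.3, 82.1 and 82.0 CPM in WT normoxia, 80.2, 86.5 and 84.6 in WT hypoxia, 89.8, 87.3 and 91.3 in TAZKo normoxia and 80.6, 76.5 and 85.0 in TAZKo hypoxia. All TAZKo normoxia libraries were above all others, by a narrow margin over WT hypoxia, and WT normoxia library 1 was the lowest of the 12. The log2 difference of TAZKo from WT in normoxia was 0.23 ± 0.085 (edgeR, adjusted p = 0.0521). It passed in 4 other fits over all 12 libraries: with replicate numbers as a block (0.24, edgeR adjusted p = 0.024), with scaling by library totals (0.24, edgeR adjusted p = 0.0414), with lane as a covariate (0.23, edgeR adjusted p = 0.0445) and by DESeq2 (0.22, adjusted p = 0.0437). Without WT normoxia library 1 it was 0.13 (edgeR, adjusted p = 0.107). Leaving out WT normoxia library 2 or 3 with the scaling reference held gave 0.29 and 0.30, with edgeR adjusted p of 0.0343 and 0.0322. In hypoxia the difference was -0.05 ± 0.085 (edgeR, adjusted p = 0.672). The hypoxia difference was 0.14 ± 0.085 in WT and -0.15 ± 0.085 in TAZKo (edgeR, adjusted p = 0.194 and 0.173). Without WT normoxia library 1 the former was 0.03, and the latter, which that library enters only through the shared spread, passed (-0.15, edgeR adjusted p = 0.0216). The TAZKo difference also passed in a fit of only the 6 TAZKo libraries (-0.15, edgeR adjusted p = 0.0308) and when libraries were scaled by their totals (-0.24, edgeR adjusted p = 0.0274).

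Because PKR is itself an interferon-induced gene, a list of 11 interferon-stimulated genes was read beside it, of which 10 were tested. In TAZKo, 5 were higher and 0 lower in normoxia, and 6 higher and 0 lower in hypoxia, with list medians of 0.64 and 0.61. Oasl2, an oligoadenylate synthetase-like gene, differed by 1.10 and 1.56, and Irf7, a regulator of interferon genes, by 0.92 and 1.11. With hypoxia 2 of the 10 rose and 6 fell in WT, and 1 rose and 7 fell in TAZKo, with medians of -0.60 and -0.68. Of these calls, that of Ifit3 between genotypes in hypoxia was lost in 10 of 33 alternatives, and the rise of Mx1 in TAZKo was lost in 24 of 33. The Eif2ak2 difference was at most 0.29 in size on this scale in the 5 comparisons.

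Eif2ak3, the PERK kinase of the endoplasmic reticulum (ENSMUSG00000031668, chr6:70844515-70905245, plus strand), rose with hypoxia under the WT label. Its level was 29.6, 25.9 and 31.2 CPM in WT normoxia, 37.5, 34.0 and 36.5 in WT hypoxia, 25.3, 27.7 and 25.9 in TAZKo normoxia, and 26.0, 29.4 and 27.8 in TAZKo hypoxia. The 3 WT hypoxia libraries were the highest of the 12, and the other 3 groups overlapped. The hypoxia difference was 0.32 ± 0.080 in WT and 0.08 ± 0.081 in TAZKo (edgeR, adjusted p = 0.00458 and 0.47). Set against each other, the responses differed by -0.24 ± 0.114, which did not pass (edgeR, adjusted p = 0.332), so the responses are not shown to differ. In hypoxia Eif2ak3 was lower in TAZKo by -0.38 ± 0.080 (edgeR, adjusted p = 0.00268), and in normoxia the difference was -0.14 ± 0.081 (edgeR, adjusted p = 0.224). Without WT normoxia library 2, the lowest of its group, the WT hypoxia call was lost (0.19, edgeR adjusted p = 0.0662) and the normoxia genotype difference passed (-0.24, edgeR adjusted p = 0.0415). With the scaling reference held, leaving out that library gave 0.24, which passed, and -0.21, which did not (edgeR, adjusted p = 0.0242 and 0.0715). The corresponding values without WT normoxia library 1 were 0.33 and -0.12.

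Of 8 genes of the endoplasmic reticulum stress response, 4 rose and 1 fell with hypoxia in WT, and 3 rose and 1 fell in TAZKo. Ern1, the IRE1 sensor, rose by 0.25 in WT and 0.27 in TAZKo, and Dnajb9, an IRE1-dependent co-chaperone, by 1.24 and 0.72, of which the latter was lost in 5 of 34 alternatives. Atf6, another sensor, rose in WT by 0.31 and stood at 0.13 in TAZKo, where it did not pass. Between genotypes 1 was higher and 2 lower in TAZKo in normoxia and 0 higher and 2 lower in hypoxia. The one that was higher was Herpud1, which acts in the degradation of proteins from that compartment, by 0.88 (edgeR, adjusted p = 2.45e-06). Herpud1 rose with hypoxia by 1.32 in WT and 0.35 in TAZKo, and it alone of the list passed the test of the difference between responses (-0.96, edgeR adjusted p = 0.000601). Hspa5, the main chaperone of that compartment, was lower in TAZKo by -0.29 in normoxia and -0.43 in hypoxia, and Sdf2l1, which works with it, by -0.62 and -0.43. The list medians lay between -0.12 and 0.19 in the 5 comparisons.

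Eif2ak4, the GCN2 kinase (ENSMUSG00000005102, chr2:118388618-118475234, plus strand), fell with hypoxia in both genotypes. It was at 78.2, 75.2 and 72.6 CPM in WT normoxia, 66.9, 63.1 and 66.3 in WT hypoxia, 88.6, 84.0 and 84.7 in TAZKo normoxia and 67.3, 70.5 and 71.1 in TAZKo hypoxia. The 4 groups did not overlap, in the order TAZKo normoxia, WT normoxia, TAZKo hypoxia, WT hypoxia. Hypoxia changed it by -0.20 ± 0.056 in WT and -0.30 ± 0.056 in TAZKo (edgeR, adjusted p = 0.00813 and 0.000674). TAZKo differed from WT by 0.19 ± 0.056 in normoxia (edgeR, adjusted p = 0.0205) and by 0.09 ± 0.056 in hypoxia (edgeR, adjusted p = 0.25). The normoxia call was lost when any 1 of 10 libraries was left out, every one but WT normoxia 1 and WT hypoxia 1 (0.13 to 0.17, edgeR adjusted p = 0.0539 to 0.147). With the scaling reference held it was lost without WT normoxia 2 or 3 or TAZKo normoxia 1 or 3 (0.16 to 0.20, edgeR adjusted p = 0.05 to 0.0813), and it passed without WT normoxia 1 (0.22, edgeR adjusted p = 0.00614), where the WT hypoxia difference was -0.18.

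Compared per length of merged exons (RPKM, the CPM divided by the exon length in kilobases), Eif2ak1 and Eif2ak2 had the highest transcript levels of the 4 kinases and Eif2ak3 the lowest in every group. In WT normoxia Eif2ak1 stood at 18.3 ± 0.344 RPKM (SD, n = 3), Eif2ak2 at 14.9 ± 2.01, Eif2ak4 at 10.1 ± 0.382 and Eif2ak3 at 4.79 ± 0.452. In TAZKo normoxia Eif2ak2 led with 17.5 ± 0.396 against 14.6 ± 0.479 for Eif2ak1. The order of the kinases and their shares rest on the merged exon lengths. These were 5670 bases for Eif2ak1, 5113 for Eif2ak2, 6026 for Eif2ak3 and 7457 for Eif2ak4. Other lengths were not tested, nor was the part of the Eif2ak1 counts from the overlap with Aimp2. Of the summed kinase RPKM, Eif2ak1 made up 38.1% ± 1.69 in WT normoxia, 32.7% ± 1.26 in WT hypoxia, 30.4% ± 0.612 in TAZKo normoxia and 30.1% ± 0.627 in TAZKo hypoxia. The share of Eif2ak2 was 30.9% ± 3.39, 35.4% ± 1.52, 36.5% ± 0.789 and 37.1% ± 1.48 in the same order. Eif2ak3 took 9.97% ± 1.02, 12.9% ± 0.643, 9.11% ± 0.547 and 10.8% ± 0.639, and Eif2ak4 21.0% ± 1.34, 19.0% ± 0.628, 24.0% ± 0.322 and 22.0% ± 0.390. The 4 shares in WT normoxia without library 1 were 37.2%, 32.8%, 9.69% and 20.3%. The sum of the 4 was 48.1 ± 1.30, 46.3 ± 0.365, 47.9 ± 0.746 and 42.5 ± 0.966 RPKM. In TAZKo hypoxia the sum was below that of every other library, but an exact two-sided permutation test of 3 against 3 libraries cannot go below p = 0.1, and after adjustment over the 24 such comparisons made on these shares, the sum and the phosphatase ratio the smallest value was 0.141.

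**Figure D2:**
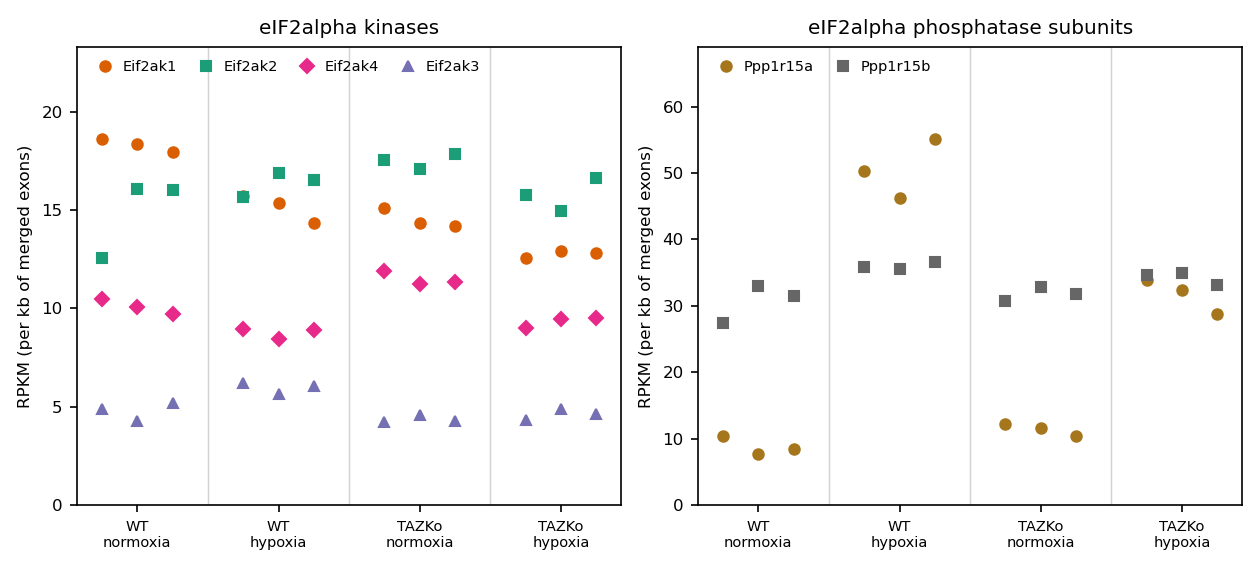
Transcript level per kilobase of merged exons (RPKM) in the 12 libraries, for the 4 kinases on the left and the 2 phosphatase subunits on the right; each point is 1 library. Eif2ak1 lies above Eif2ak2 in all 3 WT normoxia libraries and below it in all 6 TAZKo libraries, and Ppp1r15a lies above Ppp1r15b only in the 3 WT hypoxia libraries.

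Of 6 regulators of the kinases, 0 rose and 2 fell with hypoxia in WT, and 1 rose and 1 fell in TAZKo. Prkra, an activator of PKR, changed by -0.44 in WT and -0.56 in TAZKo (edgeR, adjusted p = 4.32e-05 and 6.5e-06). Gcn1, a ribosome-bound activator of GCN2, fell by 0.31 in WT (edgeR, adjusted p = 0.00749), and by 0.21 (-0.21) without WT normoxia library 1, whereas its TAZKo value of -0.10 did not pass. Impact, which competes with GCN2 for GCN1, was lower in TAZKo normoxia (-0.40, edgeR adjusted p = 0.0289) and rose with hypoxia in TAZKo (0.34, edgeR adjusted p = 0.0436). Both Impact calls depended on the setting and were lost in 10 and in 21 of 34 alternatives. In the genotype comparisons 0 of the 6 were higher, with 1 lower in normoxia and 0 lower in hypoxia by edgeR, where 0 had an unadjusted p under 0.05 and 0 passed by DESeq2.

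Eif2s1, which encodes eIF2alpha (ENSMUSG00000021116, chr12:78861819-78887010, plus strand), passed none of the 5 tests. Its level was 83.2, 100.6 and 100.8 CPM in WT normoxia, 101.9, 106.0 and 103.7 in WT hypoxia, 100.2, 104.5 and 93.7 in TAZKo normoxia, and 96.2, 94.2 and 97.8 in TAZKo hypoxia. Neighbouring groups overlapped throughout, and WT normoxia library 1 was again the lowest. The log2 differences were 0.07 ± 0.073 and -0.11 ± 0.073 between genotypes in normoxia and in hypoxia (edgeR, adjusted p = 0.531 and 0.271), and 0.13 ± 0.073 and -0.05 ± 0.073 for hypoxia in WT and in TAZKo (edgeR, adjusted p = 0.155 and 0.622). In normoxia the sign of the genotype difference turned without WT normoxia library 1 (-0.02) or TAZKo normoxia library 2 (-0.01), and the WT hypoxia difference without the former was 0.04.

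Its partners moved in both directions. Of 10 genes of eIF2, its exchange factor eIF2B and their assembly, 9 were tested and Eif2s3y had 0 counts in all 12 libraries. With hypoxia 2 rose and 4 fell in WT, and 1 rose and 3 fell in TAZKo. Eif2b3 and Eif2b4, catalytic and regulatory subunits of eIF2B, changed by -0.61 and -0.57 in WT and by -0.63 and -0.53 in TAZKo, and Cdc123, which assembles eIF2, by -0.34 and -0.35. Eif5, the GTPase-activating partner of eIF2, rose by 0.68 and 0.38, the latter lost in 13 of 34 alternatives. Eif2s2, the beta subunit, rose with hypoxia in WT by 0.52 (edgeR, adjusted p = 0.000954) and was higher in TAZKo normoxia by 0.46 (edgeR, adjusted p = 0.005). These were 0.38 and 0.32 without WT normoxia library 1, and the WT rise of Eif5 0.50. The fall of Eif2b1 in WT, by 0.17 (-0.17), was lost in 12 of 34 alternatives. Between genotypes 2 of the 9 were higher and 1 lower in TAZKo normoxia, and 1 higher and 1 lower in TAZKo hypoxia. Eif2b3 was higher by 0.32 and 0.30 and Eif2b4 lower by -0.36 and -0.32 in those comparisons, and the Eif2b3 calls were lost in 3 and in 5 of 34 alternatives.

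Ppp1r15a, the stress-induced GADD34 subunit (ENSMUSG00000040435, chr7:45522916-45526268, minus strand), had the largest changes of the 9 genes. It stood at 30.7, 22.6 and 24.8 CPM in WT normoxia, 147.8, 135.9 and 162.1 in WT hypoxia, 36.1, 34.0 and 30.7 in TAZKo normoxia, and 99.5, 95.1 and 84.7 in TAZKo hypoxia. All WT hypoxia libraries were above all TAZKo hypoxia libraries, which were above all 6 normoxic ones, and the 2 normoxic groups met at 30.7. Hypoxia raised it 5.71-fold in WT (log2 2.51 ± 0.113, edgeR adjusted p = 8.6e-10) and 2.78-fold in TAZKo (1.47 ± 0.109, edgeR adjusted p = 2.09e-07). The response in TAZKo was smaller by 1.04 ± 0.153 on the log2 scale, a ratio of 0.486 (-1.04, edgeR adjusted p = 0.00299), and this was the only one of the 9 genes to pass the test of the difference between responses. Between genotypes it was lower in TAZKo hypoxia by -0.68 ± 0.105 (edgeR, adjusted p = 0.000257) and higher in TAZKo normoxia by 0.37 ± 0.112 (edgeR, adjusted p = 0.0234). Across the 34 alternatives the WT response ran from 2.37 to 2.65 and the TAZKo response from 1.38 to 1.54, and the difference between them from -1.17 to -0.93 in the 33 that allow it. The normoxia genotype call was lost without WT normoxia 2 (0.24), WT normoxia 3 (0.30), TAZKo normoxia 1 (0.28) or TAZKo normoxia 2 (0.32), with edgeR adjusted p of 0.091 to 0.131, and it stood at 0.50 (edgeR, adjusted p = 0.00118) without WT normoxia 1, where the WT response was 2.65 and the difference between responses -1.17.

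The 250 bases before the RefSeq start of Ppp1r15a and of Oma1 are printed because these were the genes with the largest rise and the largest fall under hypoxia. RefSeq starts can differ from the gene coordinates given with each gene. The Oma1 window ends at 103313845, past the gene start at 103313812. They are RefSeq sequences of GRCm38.p6, 5′ to 3′ on the strand of the gene, from chr7:45526269-45526518 (minus strand) and chr4:103313596-103313845 (plus strand), and capitals mark motif matches.
Ppp1r15a: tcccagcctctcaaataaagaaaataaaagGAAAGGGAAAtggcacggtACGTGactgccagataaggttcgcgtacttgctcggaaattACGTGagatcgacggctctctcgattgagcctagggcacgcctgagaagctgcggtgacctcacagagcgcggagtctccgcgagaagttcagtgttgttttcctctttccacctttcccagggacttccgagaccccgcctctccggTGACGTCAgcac
Oma1: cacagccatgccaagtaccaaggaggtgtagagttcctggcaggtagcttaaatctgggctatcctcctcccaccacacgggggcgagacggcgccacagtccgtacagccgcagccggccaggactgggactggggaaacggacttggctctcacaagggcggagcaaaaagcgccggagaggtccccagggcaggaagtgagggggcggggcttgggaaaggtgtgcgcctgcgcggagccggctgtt
The letters searched on both strands were ACGTG (core of the HIF-binding element), TGATGNAA (the composite element of C/EBP and ATF proteins), TGACGTCA (the cyclic AMP response element, bound by ATF and CREB proteins), GAAANNGAAA (the interferon-stimulated element) and CCAAT. In Ppp1r15a, ACGTG occurred 2 times, beginning 201 and 160 bases before the start, TGACGTCA once, 12 bases before it, and GAAANNGAAA once, 220 bases before it, none overlapping another. None of the 5 motifs was found in the Oma1 window. Among 32851 promoter windows of the same length, 16.6% held ACGTG, 3.45% TGATGNAA, 1.55% TGACGTCA, 2.98% GAAANNGAAA and 33.8% CCAAT. Windows were found for 7 of the 9 genes. Of the others, that of Eif2ak3 held CCAAT 6 times, that of Eif2ak1 held it 1 time, and that of Eif2s1 held GAAANNGAAA 1 time. The Eif2s1 window (chr12:78861822-78862071) lies inside the gene coordinates given above. A match of letters is a description of the sequence and says nothing of which factor binds.

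Ppp1r15b, the constitutive CReP subunit (ENSMUSG00000046062, chr1:133131143-133139783, plus strand), had differences of at most 0.23 on the log2 scale. Its level was 153.2, 184.4 and 176.4 CPM in WT normoxia, 200.8, 198.9 and 204.6 in WT hypoxia, 172.3, 183.4 and 178.0 in TAZKo normoxia, and 193.9, 195.5 and 185.1 in TAZKo hypoxia. The hypoxic libraries were above all normoxic ones in both genotypes, with WT hypoxia highest. Hypoxia raised it by 0.23 ± 0.066 in WT, and in TAZKo the difference was 0.11 ± 0.066 (edgeR, adjusted p = 0.00924 and 0.213). The TAZKo difference passed in 1 of 34 alternatives. The genotype differences were 0.05 ± 0.066 in normoxia and -0.07 ± 0.066 in hypoxia (edgeR, adjusted p = 0.585 and 0.438), and that between responses -0.13 ± 0.093 (edgeR, adjusted p = 0.561). The WT hypoxia call was lost in 10 of 34 alternatives, among them no filter on low counts (0.16, edgeR adjusted p = 0.143), library size alone (0.13, 0.0958) and only the 6 WT libraries (0.18, 0.118), and in 7 fits that left out 1 library: WT hypoxia 1, 2 or 3, TAZKo normoxia 2 or 3, or TAZKo hypoxia 1 or 2 (0.17 to 0.19, edgeR adjusted p = 0.0507 to 0.103). Without WT normoxia library 1 it was 0.16 (edgeR, adjusted p = 0.0145), and the normoxia genotype difference was -0.02.

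The balance of the 2 subunits was read from transcript levels per length. The ratio of Ppp1r15a to Ppp1r15b RPKM was 0.382, 0.234 and 0.268 in WT normoxia, 1.40, 1.30 and 1.51 in WT hypoxia, 0.399, 0.353 and 0.329 in TAZKo normoxia, and 0.978, 0.926 and 0.871 in TAZKo hypoxia. By this measure Ppp1r15a was above Ppp1r15b in all 3 WT hypoxia libraries and in none of the other 9. The ratio rests on merged exon lengths of 2937 bases for Ppp1r15a and 5594 for Ppp1r15b. A shorter length for Ppp1r15a would raise it, and other lengths were not tested. In TAZKo hypoxia, at 0.871 to 0.978, the order of the pair therefore depends on the lengths used. The means were 0.294 ± 0.0775, 1.40 ± 0.104, 0.360 ± 0.0357 and 0.925 ± 0.0533 (SD, n = 3), with 0.251 in WT normoxia without library 1, and the hypoxic groups did not overlap each other or the normoxic ones (exact two-sided permutation p = 0.1, the smallest possible, adjusted 0.141 over 24 comparisons). Of the 3 catalytic subunits of protein phosphatase 1, Ppp1ca was lower in TAZKo by -0.35 in normoxia and -0.27 in hypoxia (edgeR, adjusted p = 0.00291 and 0.012). Ppp1cc rose with hypoxia in WT by 0.33 (edgeR, adjusted p = 0.0242), a call lost in 15 of 34 alternatives, and Ppp1cb passed no test.

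**Figure D3:**
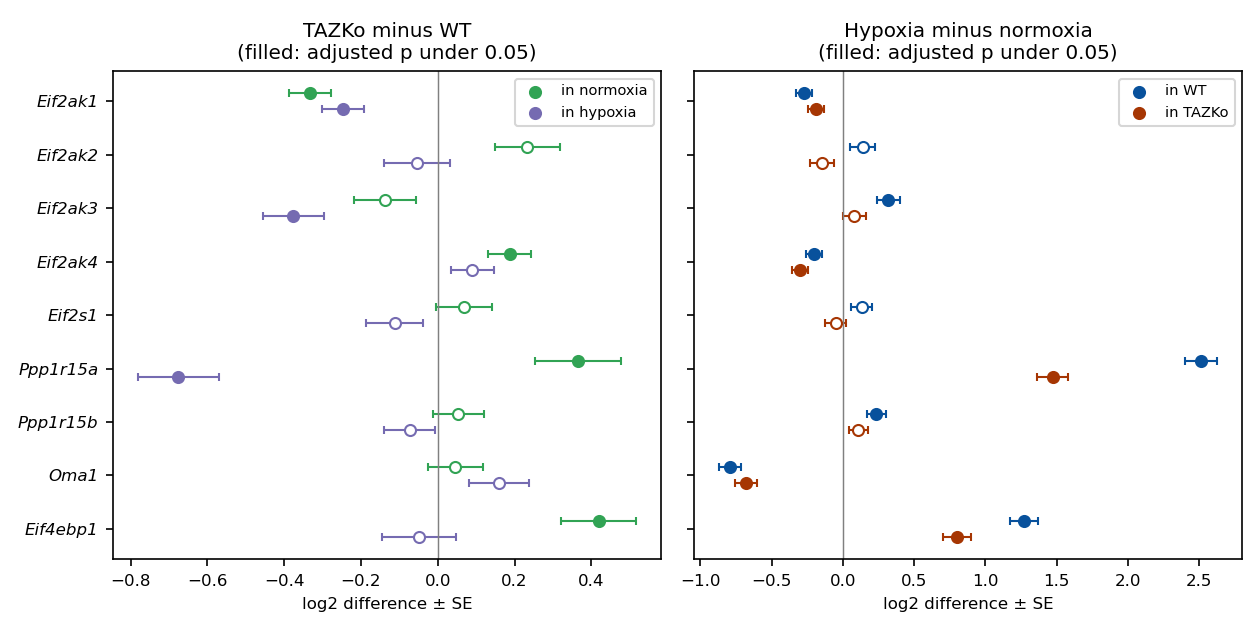
Log2 differences with standard errors for the 9 genes from the edgeR fit over 12 libraries, TAZKo minus WT on the left (green in normoxia, purple in hypoxia) and hypoxia minus normoxia on the right (blue in WT, brown in TAZKo); filled points have an adjusted p under 0.05. Ppp1r15a is at 2.51 and 1.47 for hypoxia and is the gene whose genotype difference is 0.37 in normoxia and -0.68 in hypoxia.

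Oma1, the inner membrane protease (ENSMUSG00000035069, chr4:103313812-103371868, plus strand), fell with hypoxia in both genotypes. It was at 15.4, 15.4 and 15.1 CPM in WT normoxia, 8.10, 9.06 and 9.24 in WT hypoxia, 15.9, 16.0 and 15.6 in TAZKo normoxia, and 9.33, 10.0 and 10.1 in TAZKo hypoxia. The normoxic libraries lay within 1 CPM of each other and far above the hypoxic ones, and in each condition all TAZKo libraries were slightly above all WT libraries. With hypoxia the level fell to 0.577 of that in normoxia in WT (log2 -0.79 ± 0.076, edgeR adjusted p = 1.58e-06) and to 0.624 in TAZKo (-0.68 ± 0.075, edgeR adjusted p = 7.91e-06). The genotype differences did not pass: 0.05 ± 0.072 in normoxia and 0.16 ± 0.078 in hypoxia (edgeR, adjusted p = 0.683 and 0.142). The median genotype difference of the genes on its chromosome was 0.13 in both conditions. The difference between responses was 0.11 ± 0.107 (edgeR, adjusted p = 0.659). Both hypoxia calls were kept under all 34 alternatives (-0.90 to -0.74 in WT and -0.78 to -0.65 in TAZKo), and the WT value without WT normoxia library 1 was -0.79.

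No gene among 7 others of the inner membrane relay differed by more in size than Stoml2 and Phb, at -0.40 on the log2 scale, in a hypoxia comparison. Of the 7, 0 rose and 3 fell with hypoxia in WT, and 0 rose and 1 fell in TAZKo. Stoml2, a scaffold of the inner membrane, changed by -0.40 in WT and -0.36 in TAZKo, Phb, a prohibitin, by -0.40 in WT, and Dele1, the substrate of OMA1 that activates HRI, by -0.25 in WT (edgeR, adjusted p = 0.0239), while its value of -0.10 in TAZKo did not pass. In TAZKo normoxia 0 of the 7 were higher and 2 lower, namely Dele1 (-0.26, edgeR adjusted p = 0.0308) and Phb2 (-0.27, edgeR adjusted p = 0.0262). These calls were lost in 8 and in 6 of 34 alternatives, and that of Dele1 with hypoxia in 4. They were -0.15, -0.16 and -0.14 without WT normoxia library 1, and none passed (edgeR, adjusted p = 0.0798, 0.0626 and 0.0754). In hypoxia 0 were higher and 0 lower by the edgeR test, 1 had an unadjusted p under 0.05 and 0 passed by DESeq2. Opa1 and Pgam5, further substrates of OMA1, and Yme1l1, the protease that shares Opa1 with it, passed none of the 5 tests.

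Eif4ebp1, which encodes the repressor that binds the cap-binding protein eIF4E until mTORC1 phosphorylates it (ENSMUSG00000031490, chr8:27260329-27276674, plus strand), rose with hypoxia in both genotypes. Its level was 120.8, 97.8 and 86.0 CPM in WT normoxia, 228.5, 244.9 and 259.8 in WT hypoxia, 137.2, 134.5 and 135.5 in TAZKo normoxia, and 245.6, 226.5 and 237.0 in TAZKo hypoxia. The hypoxic groups overlapped each other and lay above both normoxic groups, and TAZKo normoxia lay above WT normoxia. Hypoxia raised it 2.41-fold in WT (log2 1.27 ± 0.098, edgeR adjusted p = 2.03e-07) and 1.74-fold in TAZKo (0.80 ± 0.097, edgeR adjusted p = 2.06e-05). In normoxia it was higher in TAZKo by 0.42 ± 0.098 (edgeR, adjusted p = 0.0051), where the median of the genes on its chromosome was -0.16, and in hypoxia the difference was -0.05 ± 0.096 (edgeR, adjusted p = 0.742). The difference between responses was -0.47 ± 0.137 and did not pass (edgeR, adjusted p = 0.102). Without WT normoxia library 1, the highest of its group, it was -0.61 and passed (edgeR, adjusted p = 0.00133), and it passed at -0.42 with no filter on low counts (edgeR, adjusted p = 0.0119). Without that library the normoxia genotype difference was 0.56 and the WT hypoxia difference 1.41 (edgeR, adjusted p = 1.46e-05 and 4.36e-10).

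Eif4ebp1 has paralogues that bind the same cap-binding protein. Eif4ebp2 fell with hypoxia in WT by 0.34 (-0.34, edgeR adjusted p = 0.000115), was at -0.06 in TAZKo, and was higher in TAZKo hypoxia by 0.28 (edgeR, adjusted p = 0.00115). Eif4ebp3 was under 1 CPM in every library. Among 18 genes of the eIF4E and mTORC1 arm, 6 rose and 3 fell with hypoxia in WT, and 4 rose and 2 fell in TAZKo, with list medians of 0.01 and -0.001. Among the rises in WT, Tsc1 was lost in 20 of 34 alternatives, Rheb in 14 of 34 and Eif4g3 in 4 of 33, and in TAZKo Tsc1 was lost in 3 of 34. Ddit4, an inhibitor of mTORC1 induced by low oxygen, rose by 2.35 in WT and 1.86 in TAZKo. Mtor and Rptor, core subunits of that kinase complex, fell in both: -0.34 and -0.53 in WT, -0.30 and -0.34 in TAZKo. Eif4b, a helicase cofactor, rose by 0.32 and 0.53. Between genotypes 2 were higher and 1 lower in normoxia, and 4 higher and 1 lower in hypoxia, where the call of Eif4g3 was lost in 17 of 33 alternatives. Eif4g1, the scaffold of the cap-binding complex, was lower in TAZKo in both (-0.36 and -0.27), and Sesn2, a leucine sensor that restrains mTORC1, was higher in both (1.76 and 0.64).

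Atf4 and 8 genes listed as targets of ATF4 were read at the level of RNA. Neither the phosphorylation of eIF2alpha nor ATF4 protein was measured, and other inputs to these genes were not tested. In TAZKo normoxia 8 of these 9 were higher and 1, Vldlr, lower, with a median of 1.12. In TAZKo hypoxia 5 were higher and 2, Vldlr and Atf3, lower, with a median of 0.24. Vldlr was lower by -3.97 in normoxia, with 35, 27 and 30 counts in WT and 2 in each TAZKo library. In hypoxia it was lower by -5.33, with 215, 213 and 268 counts in WT and 7, 4 and 8 in TAZKo. With hypoxia 8 rose in WT and 0 fell (median 1.92), and 6 rose and 1 fell in TAZKo (median 1.04). Of these, the call of Nupr1 between genotypes in hypoxia (0.24) was lost in 18 of 34 alternatives. The rise of Vldlr in TAZKo rests on 2 counts in each normoxic library against 7, 4 and 8 in the hypoxic ones and was lost in 6 of 32. Atf4 itself was at 376.5 ± 45.5, 805.6 ± 57.8, 600.6 ± 37.7 and 782.9 ± 5.78 CPM (SD, n = 3) in WT normoxia, WT hypoxia, TAZKo normoxia and TAZKo hypoxia. None of the 4 kinase genes rose under the TAZKo label in both conditions, and only Eif2ak3 among them rose with hypoxia in a genotype. A link between kinase transcript levels and the genes of this list was not tested.

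The difference between the genotypes' hypoxia responses was in the lower direction for 6 of these 9 genes and in the higher direction for 0. Atf4 was at -0.71 ± 0.117 and Atf3 at -1.78 ± 0.158 (edgeR, adjusted p = 0.00554 and 0.00016). Ppp1r15a, at -1.04, lay between them. As in Atf4, its level in normoxia was higher under the TAZKo label, by 0.37 against 0.67. Unlike Atf4, which stood at -0.04 in hypoxia, Ppp1r15a was lower in TAZKo hypoxia, as was Atf3 (-0.68 and -1.30). These values share libraries and are given side by side without a test across genes.

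**Figure D4:**
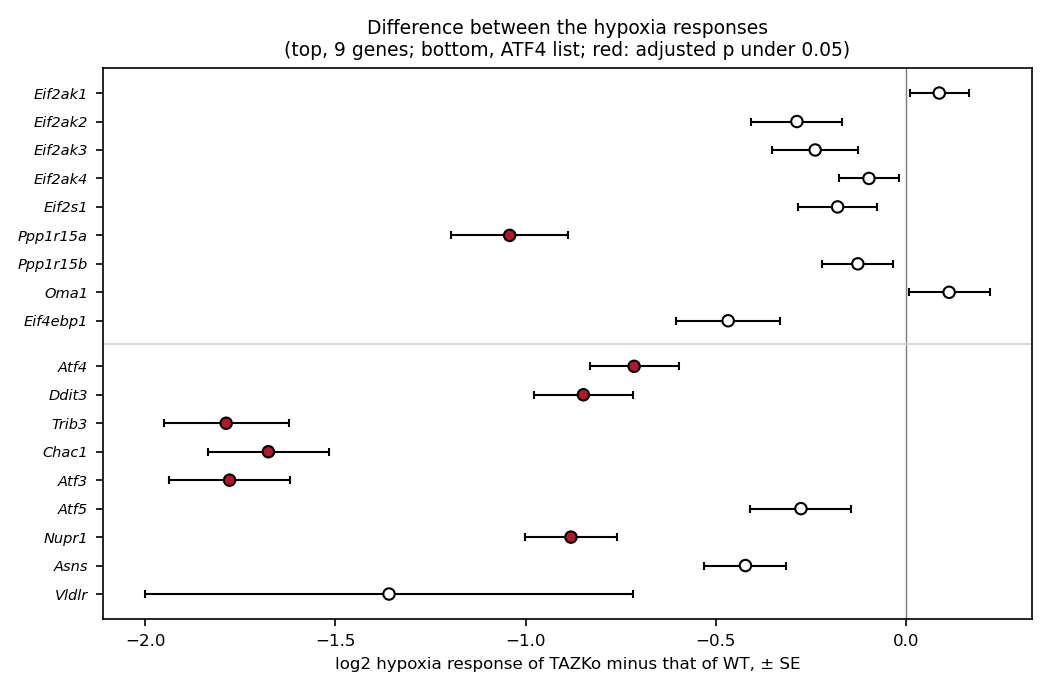
Difference between the hypoxia responses of TAZKo and WT on the log2 scale, with standard errors, for the 9 genes (top) and the ATF4 list (bottom); red points have an edgeR adjusted p under 0.05. Ppp1r15a at -1.04 is the only red point among the 9 genes, and 6 of the 9 points below are red.

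The genes whose log2 level tracked each of the 9 most closely over the 12 libraries were listed from 9429 genes with a mean of at least 10 CPM. The libraries fall into 4 groups, so a high correlation can mainly say that the order of group means is alike, and no p is given. It can also rest on 1 library. WT normoxia library 1 was the lowest of the 12 for Eif2ak2, Eif2s1, Ppp1r15b and the Ppp1r15b neighbour Eif5. Its weight in these correlations was not tested. For Ppp1r15a these were Dusp1 (Pearson r = 0.994), a stress-induced phosphatase of MAP kinases, Atf3 (0.993) and H2-K1 (0.993). Eif4ebp1 was nearest to Vegfa (0.991), the angiogenic growth factor, Siah2 (0.988) and Atxn2l (0.987). Oma1 was nearest to Lage3 (0.992), Chid1 (0.987) and Cxcl1 (0.986), and Eif2ak1 to the proteasome subunit gene Psmd7 (0.993), the splicing factor gene Sf3b3 (0.99) and Slc35a4 (0.987). For Eif2ak4 they were Dclre1b (0.978), Pomgnt1 (0.972) and Serhl (0.967), and for Ppp1r15b Eif5 (0.978), Plekha1 (0.977) and Pgrmc1 (0.968). The other 3 genes had looser neighbours: Tut4, Pus10 and Sass6 for Eif2ak2 (0.939 to 0.952), Lpcat3, Rims2 and Bcorl1 for Eif2ak3 (0.92 to 0.951), and Gmps, Gtpbp4 and Psmc6 for Eif2s1 (0.906 to 0.945).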

How the data were processed

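RNA sequencing libraries (Illumina TruSeq RNA v2, per the labels' protocols) gave 1 table of whole-number read counts per Ensembl gene for each of 12 samples. The authors deposited whole-number counts, and no normalization of them is recorded. The build is mm10, per the submitters' processing notes, and the aligner, the counting program and the annotation release are not given in the sources used here. Of 48709 gene IDs, 48349 were matched to symbols and to GENCODE M21 coordinates on GRCm38 by ID. Groups were taken from the labels. The 9 genes, the lists beside them and the alternatives were chosen with earlier results of these data known. The 9 genes are all named whatever their values, and other genes come from the lists.

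Low-count genes were removed with filterByExpr by the 4 groups, TMM factors (trimmed mean of M values) set the library scale, and the edgeR quasi-likelihood test (edgeR 4.0.16, limma 3.58.1, R 4.3.3) was fitted over all 12 samples with 1 coefficient a group and Benjamini-Hochberg adjustment over 14408 genes, at a threshold of 0.05. The biological coefficient of variation was 8.62%. The procedure was first tested on simulated data. RPKM used the merged exon length of GENCODE M21. The depth, 21039451 to 31204510 counts in total, sets the counting error alone, since the protocol names no molecular identifiers. Replicate pairs of every group differed by more than sampling noise (chi-square per gene 3.11 to 48.9), and all 12 samples were kept. Technical spread can also give such an excess, so it does not show separate cultures. Outside TAZKo hypoxia the pairs that held number 1 differed most. In WT normoxia they gave 41.1 and 48.9 against 6.34 for 2 and 3. The values were 15.3 and 15.7 against 4.01 in WT hypoxia, and 9.58 and 12.2 against 3.11 in TAZKo normoxia.

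The titles number the samples 1 to 3 in each group. Same-numbered samples deviated together between genotypes in normoxia (correlations 0.35, 0.15 and 0.23) and between conditions in WT (0.37, 0.20 and 0.15). The main test did not use this pairing, which entered only as the replicate block among the alternatives. The pairing comes from the data, since no label says what a number stands for. The deposited tables name the lane: 4 for every number 1, 5 for every number 3, and for number 2 it was 4 in normoxia and 5 in hypoxia. Number and lane thus overlap in part, and the share of the lane in these correlations was not tested. Alternatives changed the scaling (DESeq2 size factors, upper quartile, library size alone), the test (DESeq2 1.42.0), the filter (none, or 5 CPM on average), the covariates (replicate block, lane) and the samples (only the groups compared, each sample left out). WT normoxia 1 as the TMM reference and leaving out each sample with the reference held were added after seeing the data.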

Additional observations from a re-analysis of the deposited data

Results flagged for a closer look

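The hypoxia response under the TAZKo label was smaller than under the WT label by a test of the difference itself (edgeR quasi-likelihood, threshold 0.05 after adjustment over all genes) for 9 of the genes examined. Among the 9 genes of the report this was Ppp1r15a, with a difference of -1.04 on the log2 scale. In the lists read beside them it was -0.71 for Atf4, -0.85 for Ddit3, -1.79 for Trib3, -1.68 for Chac1, -1.78 for Atf3, -0.88 for Nupr1, -0.96 for Herpud1 and -1.12 for Sesn2. For Chac1 and Sesn2 the response in TAZKo was -0.06 and 0.11 and did not pass, and the other 7 rose with hypoxia in both genotypes. In normoxia all 9 were higher in TAZKo than in WT, by 0.37 for Ppp1r15a to 2.37 for Trib3. That difference enters the difference between responses directly, so the 2 are not separate results. In hypoxia Trib3, Ddit3, Sesn2 and Nupr1 were still higher in TAZKo, by 0.59, 0.43, 0.64 and 0.24, the last lost in 18 of 34 alternatives. Ppp1r15a and Atf3 were lower there (-0.68 and -1.30), and Atf4, Chac1 and Herpud1 did not pass. The causes were not tested. Over all 14408 genes tested, 2.43% passed the test of the difference between responses, 1.71% in the lower direction. Among the 9 genes of the report 1 passed, and in the ATF4 list 6 of 9. In the endoplasmic reticulum stress list it was 1 of 8, and in the eIF4E and mTORC1 arm 1 of 18. None passed in the other lists, and all lists were chosen with earlier results of these data known.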

How the results depend on the processing

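Over 34 alternatives, 21 of them planned, the hypoxia calls of Ppp1r15a, Oma1, Eif4ebp1 and Eif2ak4 in both genotypes, of Eif2ak1 in WT, and the genotype calls of Eif2ak1 in both conditions, of Eif4ebp1 in normoxia and of Eif2ak3 and Ppp1r15a in hypoxia were kept. The number of the 9 genes called between genotypes in normoxia was 4, 3 with no filter, 2 when only the 6 samples compared were fitted, and 5 with DESeq2, lane as a covariate, library size alone or the replicate block, each of which added Eif2ak2; leaving out 1 sample gave 2 to 4. For the difference between responses it was 1, and 2 with no filter; leaving out 1 sample gave 1 to 2, with Eif4ebp1 added without WT normoxia 1. Over all genes that comparison called 350, against 727 with no filter, 574 with DESeq2 and 163 to 711 with 1 sample left out (without TAZKo normoxia 2 and without WT hypoxia 1; 556 without WT normoxia 1). With the replicate block it called 639. The block changed no other call among the 9 genes. In hypoxia and in TAZKo, same-numbered samples did not all deviate together (correlations from -0.024 to 0.12, with 2 of 3 pairs best with their own number in each). So few correlations cannot show whether same-numbered samples there share a culture or a batch. Signs turned, all without a call, for Eif2s1 between genotypes in normoxia without WT normoxia 1 (-0.018) or TAZKo normoxia 2 (-0.0062; range with 1 sample left out -0.018 to 0.12), for Ppp1r15b there without the same samples (-0.021 and -0.0053; range -0.021 to 0.11), and for Eif2ak3 with hypoxia in TAZKo under library size alone (-0.017). With library size alone as the scale, the median over all genes shifted by -0.106 for hypoxia in WT, so small hypoxia differences are read relative to that shift. TMM chose another reference sample when 1 was left out, and holding it restored the normoxia call of Eif2ak4 in 6 of those fits. The least abundant of the 9 genes, Oma1, had at least 162 counts in every sample, and the effect of depth on the calls was not tested.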
